A study of Mus musculus with 4 samples.

Results

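Slc16a1, Ldha, Hk1, Hk2, Rest, Oat, Acot7, Mgst1, Pdgfra and Cd44 belong to the genes that most tissues use but pancreatic β cells are known to keep at a low level, sometimes called β-cell disallowed genes. They were chosen by symbol from the gene lists of the count matrices, which hold all 10 of them among 32227 genes. The members were set by symbol alone, and none of them was used to class the cells. The data are droplet single-cell RNA-Seq counts of dissociated islets from mice homozygous for the Myt3IM allele (Myt3IM/IM) and from control mice. Each droplet barcode stands for a cell and each unique molecular identifier (UMI) for a captured transcript. The labels name 4 libraries, of which mutant 1, mutant 2 and control 2 were used, while no counts of control 1 were analysed.

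The Myt3IM allele carries a 12-base insertion in the gene of the transcription factor Myt3, made by Cas9 injection into fertilized eggs and backcrossed to CBA/BL6j or C57Bl/6j mice (the study names both), and the controls are WT mice from the same heterozygous intercrosses. The insertion is in the germ line and thus in every cell of the mutant animals. Islets of several mice of both sexes were pooled in each library, so a library is the unit of replication. The labels give adult mice on a normal diet and the PIPseq method, while the methods of the study give a high-fat diet and inDrop-Seq, and the groups are called here by the labels alone. Nothing in the counts shows the insertion. Transcripts of Myt3, listed as St18, stood at 82.2, 99.01 and 81.2 on a counts-per-million scale (CPM, here without further scaling) in the β cells of the mutant 1, mutant 2 and control 2 libraries.

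These genes act at several places. Slc16a1 encodes the plasma-membrane carrier MCT1, which moves lactate and pyruvate, and Ldha encodes the lactate dehydrogenase subunit that favours the step from pyruvate to lactate. In β cells glucose carbon is normally passed on to the mitochondria, and low levels of these proteins keep circulating lactate and pyruvate from acting as signals for insulin release. Hk1 and Hk2 encode hexokinases with a high affinity for glucose. Rest encodes a zinc-finger repressor of neuronal genes, many of which endocrine cells express. Oat (ornithine aminotransferase), Acot7 (a cytosolic acyl-CoA thioesterase) and Mgst1 (a membrane-bound glutathione transferase) are enzymes, Pdgfra is a receptor for platelet-derived growth factors that marks mesenchymal cells, and Cd44 is the cell-surface receptor for hyaluronan.

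Slc16a1 and Ldha, which act together in lactate export, were the only ones of the 9 members matched with the palindromic E-box CACGTG in the promoter window of RefSeq (GRCm38.p6), 250 bases before to 50 after the start. Rest was not matched. The stretches around these motifs are printed 5′ to 3′ with CACGTG in capitals.
Slc16a1: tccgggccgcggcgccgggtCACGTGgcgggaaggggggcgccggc
Ldha: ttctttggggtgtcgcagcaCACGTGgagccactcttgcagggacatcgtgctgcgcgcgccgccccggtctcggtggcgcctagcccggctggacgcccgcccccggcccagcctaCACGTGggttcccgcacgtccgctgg
The first lies at chr3:104638444-104638489 and the second at chr7:46845639-46845781, both on the plus strand. The motif begins 200 bases upstream of the RefSeq start in Slc16a1 and 145 and 48 bases upstream in Ldha. The RefSeq start used for Ldha lies inside the gene as GENCODE vM21 places it, from 46841475 to 46855627. The 9 members have 12 windows, of which 2 held CACGTG, as did 7.15% of 32851 mouse promoter windows. The shorter core ACGTG was searched on both strands and is contained in every CACGTG. It occurred in 6 of these 12 windows, those of 6 members (Cd44, Hk1, Hk2, Ldha, Oat and Slc16a1), and in 19.6% of all windows. These matches describe the letters only, and the libraries hold no measurement of binding at them.

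Cells were classed by a fixed rule from the hormone share of their UMIs and from marker genes, among which none of the 10 genes was used. Cells with at least 20% insulin UMIs, under 2% of each other hormone and few non-endocrine marker UMIs were called β cells, and they numbered 2145, 1492 and 1993 in mutant 1, mutant 2 and control 2. The α cells numbered 305, 226 and 35, the δ cells 25, 36 and 33, the PP cells 53, 35 and 19, the endothelial cells 37, 32 and 36 and the leukocytes 16, 14 and 13. Stellate-like cells (pericytes and fibroblasts) numbered 3, 6 and 17 and were tested in control 2 alone. Genes outside the rule followed the classes in every library: in unscaled CPM, Iapp was at 42131 or more in β cells and at 39221 or less in every other class, Ttr, an α-cell gene, was at 8771 or more in α cells and 1956 or less elsewhere, and Rbp4 reached 812 or more in δ cells and 245 or less elsewhere. No barcode was shared between libraries. β cells had a median of 2876, 4615 and 16337 UMIs. The batch entry of control 2 differs from that of the mutant libraries but is not a calendar date. It may be a typing error, so whether the batch differed is not settled. Depth, any difference of batch and genotype cannot be told apart.

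Transcripts of these genes were rare in β cells, with Cd44 as the exception. Over all 5630 β cells the UMI counts were 5 for Slc16a1, 11 for Hk2, 12 for Pdgfra, 14 for Mgst1, 17 for Rest, 47 for Hk1, 47 for Acot7, 61 for Oat and 111 for Ldha, against 2152 for Cd44. Any gene but Cd44 was seen in 60, 71 and 133 β cells of mutant 1, mutant 2 and control 2, which is 2.80%, 4.76% and 6.67% of them, and more than 1 of these 9 genes was seen in 3, 0 and 1 cells. The same genes came to 12.1, 9.54 and 4.81 unscaled CPM in β cells, so the deepest library had the lowest level.

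**Figure D1:**
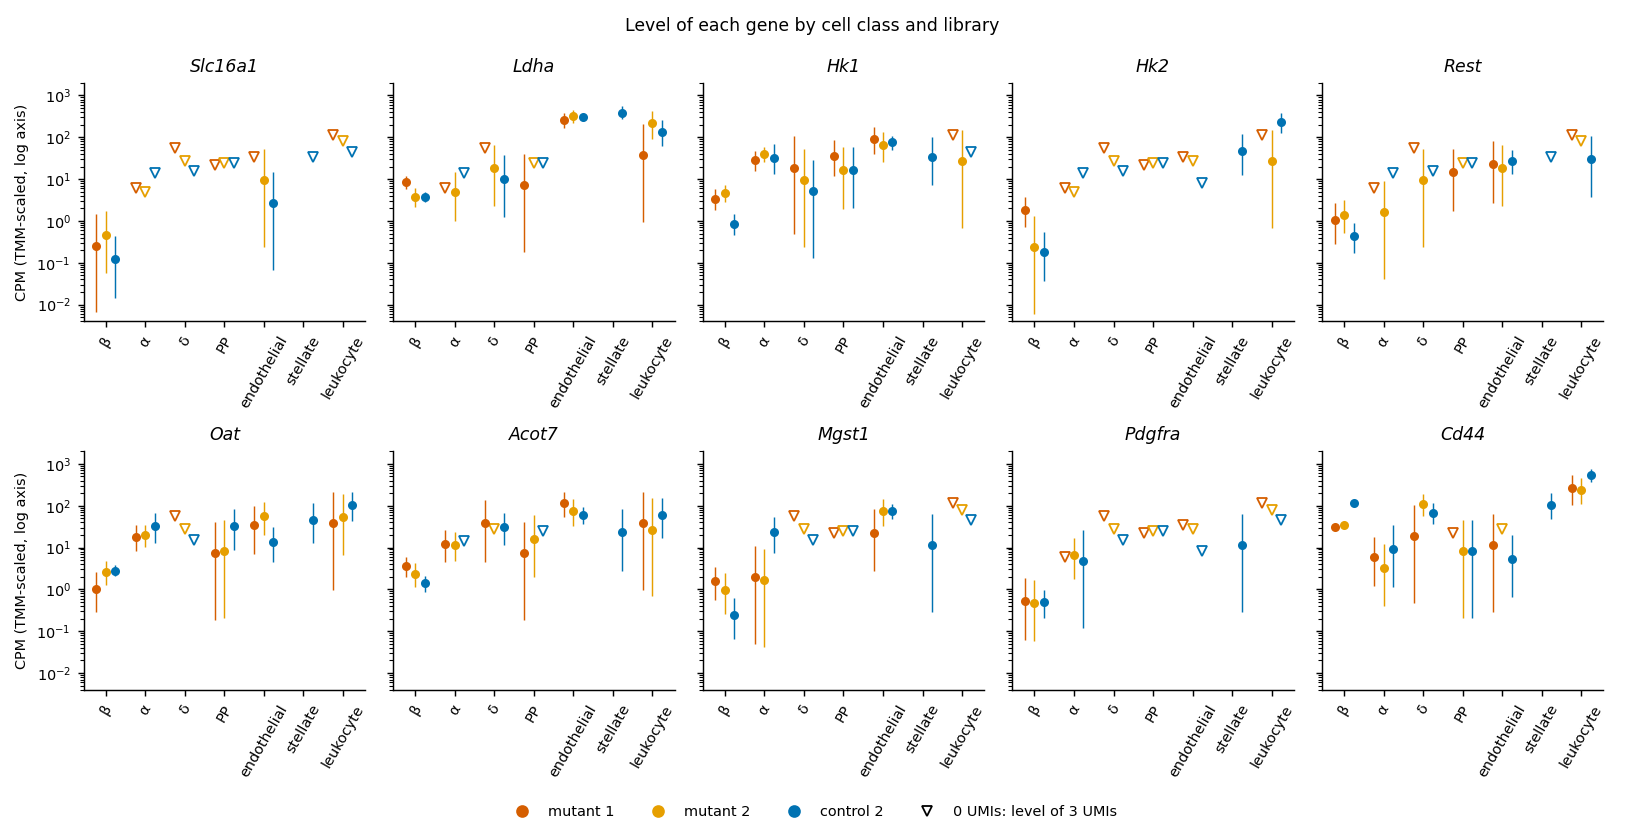
Level of each gene (CPM with TMM scaling, log axis) in 7 cell classes of mutant 1, mutant 2 and control 2. Bars are exact 95% Poisson intervals of the count, open triangles mark 0 UMIs and stand at the level of 3 UMIs, and stellate cells are shown for control 2 alone. Ldha, Hk1, Acot7 and Mgst1 were higher in endothelial than in β cells in all 3 libraries, while Cd44 was lower there than in β cells.

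To test the differences, UMIs were summed per library and class and fitted over 7570 genes with edgeR's quasi-likelihood test, with library as a block and Benjamini-Hochberg adjustment over all genes. Levels are given from here on as CPM after TMM scaling, which allows for the share of β-cell UMIs taken by insulin. Slc16a1, Rest and Pdgfra did not pass the low-count filter, and 7 of the 10 genes were tested. A gene passed if it was high enough in at least 1 sum of any class. Hk2 thus passed with 39 UMIs over all kept cells and Rest, with 45, did not. Genes rare in β cells could enter through a class where they were high, so the counts called lower are partly set by the filter. Without it, 4, 1, 6, 4 and 5 members were lower against α, δ, endothelial, stellate and leukocyte cells. Beside them stood 717, 349, 1999, 870 and 919 of 25498 genes. Against α cells, 4 of 10 were lower in β cells (Hk1, Oat, Mgst1 and Acot7), where 9.51% of all genes tested were called lower, and Cd44 was higher, as were 14.0% of all genes. Against δ cells, Acot7 was lower (4.74% of all genes lower) and no member was higher (10.3% of all). Against endothelial cells, 5 were lower (22.1% of all) and Cd44 was higher (28.4% of all). Against stellate cells 4 were lower (12.2% of all), and against leukocytes 5 were lower and 0 higher (12.9% and 24.5% of all). With all UMIs as library size, and thus insulin counted in, the split of all genes against α cells was 2500 lower and 298 higher instead of 720 and 1062, and the members called were 4 and 1 as before. Against δ cells 4 members were then lower, Acot7 with Ldha (adjusted p = 0.0378), Hk1 (0.0454) and Cd44, beside a split of 2677 and 111 for all genes instead of 359 and 777.

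**Figure D2:**
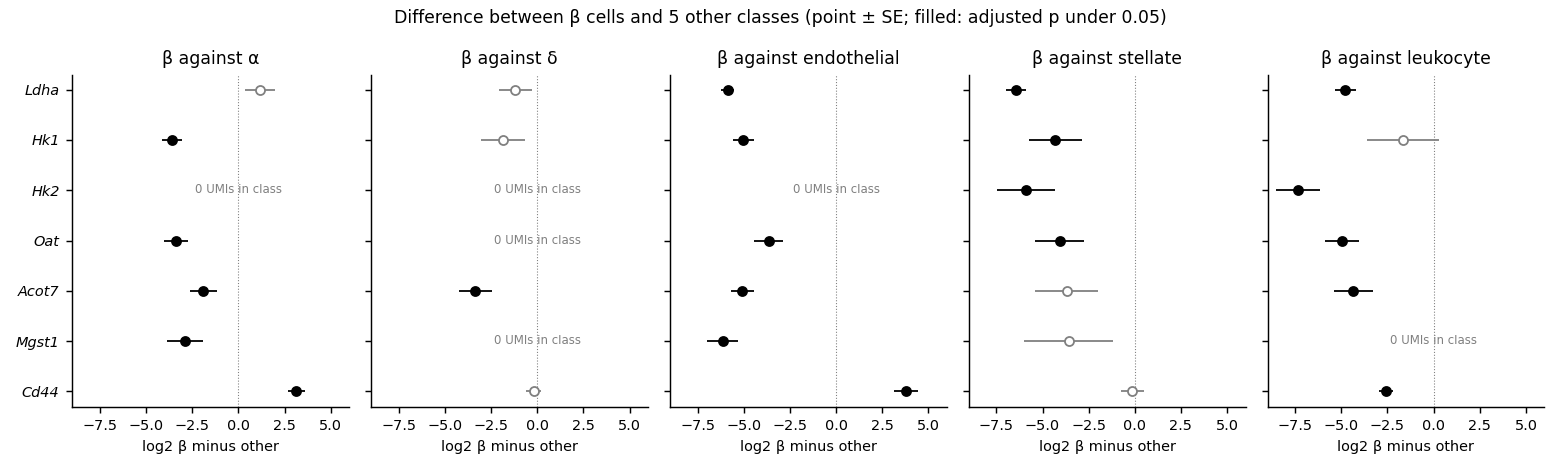
Difference between β cells and 5 other classes on the log2 scale for the 7 genes tested (point ± SE derived from the edgeR test statistic). Filled points had an adjusted p under 0.05, and a gene with 0 UMIs in the other class is written out instead of plotted. Ldha, Hk1, Oat, Acot7 and Mgst1 lie far to the left against endothelial cells, and Cd44 lies to the right against α and endothelial cells and to the left against leukocytes.

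Ldha (ENSMUSG00000063229, chromosome 7, 46841475 to 46855627, plus strand of GRCm38, GENCODE vM21) was far lower in β cells than in the cells of the vessel wall. Its level was 8.55, 3.801 and 3.78 CPM in the β cells of mutant 1, mutant 2 and control 2, from 33, 16 and 62 UMIs, and 260, 316 and 303 CPM in endothelial cells, from 23, 34 and 111 UMIs. The lowest endothelial value was thus far above the highest β-cell value. Endothelial cells held 58.7-fold more Ldha than β cells (log2 β minus endothelial -5.88, SE 0.33, adjusted p = 1.25e-67). Stellate cells of control 2 reached 391 CPM from 34 UMIs (log2 difference -6.43, SE 0.52, adjusted p = 2.65e-32). Leukocytes were at 37.7, 215 and 136 CPM, above the β cells of their library each time, and differed by -4.78 (SE 0.59, adjusted p = 1.19e-14). All 3 differences held under every alternative run.

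The other endocrine cells did not share this high Ldha level. α cells held 0, 3 and 0 Ldha UMIs, which is 0, 4.97 and 0 CPM, and δ cells 0, 2 and 2 UMIs. The difference of β from α cells was 1.19 (SE 0.81, adjusted p = 0.318) and from δ cells -1.19 (SE 0.90, adjusted p = 0.453), so no difference was detected at this depth. With the 3 libraries joined, the ratio of β to α cells was 1.99, with a counting interval of 0.664 to 9.81. A large part of the β-cell UMIs came from a pair of cells. In mutant 1, 17 of 33 Ldha UMIs were in 1 cell of 7086 UMIs, with 22.6% insulin, 6 duct and 2 endothelial marker UMIs, and in control 2, 17 of 62 were in 1 cell of 11067 UMIs, with 28.1% insulin and 2 non-endocrine marker UMIs. The remaining β cells held 16 and 45 Ldha UMIs there. In mutant 2 no β cell held more than 1.

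Slc16a1 (ENSMUSG00000032902, chromosome 3, 104638668 to 104658462, plus strand) was close to absent from all classes. β cells held 1, 2 and 2 UMIs, or 0.259, 0.475 and 0.122 CPM, and endothelial cells 0, 1 and 1. In α, δ, PP and stellate cells and leukocytes no UMI was counted, where 3 UMIs over the libraries joined would have been 2.28 CPM in α, 8.47 in δ and 23.1 in leukocytes. These limits are above the β-cell level, so the order of β cells and these classes could not be read. Against endothelial cells, with the libraries joined, the 5 β-cell and 2 endothelial UMIs gave a ratio of 0.057 with a counting interval of 0.0094 to 0.604, and the fit without a low-count filter gave -3.58 (SE 1.93, adjusted p = 0.243). Of 9 further genes of lactate and pyruvate handling, 8 were tested, and 2 were higher and 0 lower in β than in α cells. The higher ones were Pcx (pyruvate carboxylase, 117 against 27.0 CPM, log2 difference 2.11, SE 0.33, adjusted p = 3.05e-09) and Pdha1 (a pyruvate dehydrogenase subunit, 635 against 291 CPM, 1.05, SE 0.22, adjusted p = 2.96e-05). The median difference of these 8 was 0.61, beside 0.15 for all genes tested. Against endothelial cells 5 were higher and 0 lower, with a median of 1.10. With all UMIs as library size the medians became -0.08 and -0.16, beside -0.55 and -0.98 for all genes, 2 were lower and 1 higher than in α cells, 0 were lower and 1 higher than in endothelial cells, and Pdha1 lost its call.

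The hexokinases differed in where they were seen. Hk1 (ENSMUSG00000037012, chromosome 10, 62268855 to 62379908, minus strand) was at 3.37, 4.75 and 0.853 CPM in β cells, from 13, 20 and 14 UMIs, and at 28.0, 39.7 and 32.7 CPM in α cells, from 14, 24 and 7 UMIs. The ranges of the α and β cells did not overlap, and α cells held 12.2-fold more Hk1 (log2 β minus α -3.61, SE 0.53, adjusted p = 3.26e-10). This difference held in all alternatives, with adjusted p from 4.05e-15 to 0.000194. In endothelial cells Hk1 stood at 90.6, 65.0 and 76.3 CPM (log2 difference -5.02, SE 0.56, adjusted p = 3.47e-18), which also held throughout. PP cells were at 36.4, 16.2 and 16.4 CPM, within reach of the α cells. δ cells held 1 UMI in each library, and the difference there was -1.84 (SE 1.18, adjusted p = 0.345). Stellate cells of control 2 had 3 UMIs (-4.30, SE 1.45, adjusted p = 0.0169, lost when cells were thinned to 1000 UMIs), and leukocytes 1 UMI (adjusted p = 0.531). The antisense gene Hk1os overlaps Hk1, and because it is not stated whether the counting used strand, the reads of these genes could not be told apart.

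Hk2 (ENSMUSG00000000628, chromosome 6, 82725025 to 82774454, minus strand) reached its highest levels in the leukocytes and stellate cells of control 2. It had 7, 1 and 3 UMIs in β cells and 0 in all α, δ, PP and endothelial cells. Leukocytes held 0, 1 and 15 UMIs, the last at 227 CPM, and stellate cells of control 2 held 4 UMIs at 46.0 CPM. The differences were -7.37 (SE 1.19, adjusted p = 8.10e-09) and -5.89 (SE 1.59, adjusted p = 0.00175). Both rested on control 2: without it the leukocyte difference was -4.01 (adjusted p = 0.329), and DESeq2 gave adjusted p = 0.288 and 0.633. After thinning to 1000 UMIs no Hk2 UMI was left in β cells. The fitted stellate difference of 0.66 was not called there, and its sign is not read. Of 12 further glycolysis genes, 10 were tested, and 5 were higher and 0 lower in β than in α cells. These included the enzymes of lower glycolysis Eno1 (113 against 47.7 CPM, log2 difference 1.19, SE 0.28, adjusted p = 0.000187) and Pkm (492 against 223 CPM, 1.15, SE 0.22, adjusted p = 3.74e-06), the kinase Pgk1 (0.86, SE 0.33, adjusted p = 0.0396) and the phosphofructokinase Pfkp (0.95, SE 0.36, adjusted p = 0.0386). The median of the 10 was 0.67, beside 0.15 for all genes. With all UMIs as library size it was -0.07, beside -0.55 for all genes, and none of the 10 was called.

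Rest (ENSMUSG00000029249, chromosome 5, 77265491 to 77286432, plus strand) was at 22.6, 18.6 and 27.3 CPM in endothelial cells, from 2, 2 and 10 UMIs. The β cells held 4, 6 and 7 UMIs, or 1.04, 1.43 and 0.427 CPM, below every endothelial value. The 14 endothelial UMIs gave a level 35.8-fold above that of the 17 β-cell UMIs with the libraries joined, and the ratio of β to endothelial cells had a counting interval of 0.013 to 0.061. In the edgeR fit without a low-count filter this difference was -4.83 (SE 0.84, adjusted p = 1.66e-07). Leukocytes held 0, 0 and 2 UMIs, the last at 30.2 CPM, PP cells held 2, 0 and 0, the first at 14.5 CPM, and stellate cells of control 2 held 0. α cells held 1 UMI and δ cells 1 UMI, with intervals for the ratio to β cells that reach from 0.143 to 38.3 and from 0.039 to 10.3.

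The neuronal-type genes that Rest represses elsewhere were present in β cells. Of 10 such genes 8 were tested, and 5 were higher in β than in α cells, 4 higher than in δ cells and 7 higher than in endothelial cells. Against endothelial cells 1 was lower, and against α and δ cells 0 were. Scg2, a secretory granule protein, was at 3673 CPM in β cells against 543 in α (log2 difference 2.60, SE 0.23, adjusted p = 2.16e-27) and 128 in endothelial cells (4.74, SE 0.29, adjusted p = 2.91e-58). The synaptic vesicle protein gene Syp was at 259 CPM against 97.0 in α cells (1.41, SE 0.25, adjusted p = 1.95e-07), and the synaptotagmin Syt4 at 318 against 131 (1.28, SE 0.24, adjusted p = 1.01e-06). Mapk8ip1, a JNK scaffold, differed by 0.72 (SE 0.28, adjusted p = 0.0463), which fell to 0.02 with all UMIs as library size. The median over the 8 was 0.68 against α and 3.70 against endothelial cells, beside 0.15 and 0.27 for all genes. With all UMIs as library size the former turned to -0.05, beside -0.55 for all genes. Under that scaling 1 was lower and 2 higher than in α cells, 2 lower and 1 higher than in δ cells, and 1 lower and 7 higher than in endothelial cells. Of 9 corepressor genes that work with Rest, 5 were tested and 0 were called by edgeR in any of the 5 comparisons. At an unadjusted p under 0.05 edgeR gave 1 against α, 2 against stellate and 0 against the other classes, and the median against α cells was 0.01. With all UMIs as library size, 2 of them were called lower than in α, 4 lower than in δ, 4 lower than in endothelial and 1 lower than in stellate cells.

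Oat (ENSMUSG00000030934, chromosome 7, 132557478 to 132576398, minus strand) followed Hk1 in being an α-cell as well as a non-endocrine transcript. Its β-cell level was 1.04, 2.61 and 2.80 CPM from 4, 11 and 46 UMIs, and its α-cell level 18.0, 19.9 and 32.7 CPM from 9, 12 and 7 UMIs, with no overlap. α cells held 10.3-fold more (log2 β minus α -3.37, SE 0.64, adjusted p = 2.83e-06), a call lost after thinning to 1000 UMIs (-2.20, adjusted p = 0.194). Endothelial cells were at 34.0, 55.8 and 13.6 CPM (-3.64, SE 0.78, adjusted p = 1.20e-05, and 0.081 after thinning). Leukocytes were at 37.7, 53.7 and 106 CPM (-4.96, SE 0.91, adjusted p = 5.12e-07, at most 0.0418 over the alternatives). The 4 UMIs of stellate cells in control 2 gave 46.0 CPM (-4.07, SE 1.32, adjusted p = 0.0118), and after thinning the fitted difference was 2.79 (adjusted p = 0.907). Only 0, 2 and 5 Oat UMIs were then left in β cells, so this sign is not read. δ cells held 0 Oat UMIs, where 3 UMIs would have been 8.47 CPM.

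Among 8 genes around ornithine and proline, 5 were tested, and against α cells 2 were higher and 1 lower in β cells. Their median was 0.27 (-0.38 with all UMIs as library size), beside 0.15 (-0.55) for all genes. Pycr1, an enzyme of proline synthesis, was higher (180.5 against 65.6 CPM, log2 difference 1.42, SE 0.26, adjusted p = 5.11e-07). The urea-cycle enzyme Arg1, which makes ornithine, was lower (4.92 against 31.6 CPM, -2.71, SE 0.46, adjusted p = 1.10e-07).

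Acot7 (ENSMUSG00000028937, chromosome 4, 152178134 to 152271855, plus strand) stood at 3.63, 2.38 and 1.40 CPM in β cells, from 14, 10 and 23 UMIs, and at 113, 74.3 and 59.96 CPM in endothelial cells. Endothelial cells thus held 33.8-fold more, without overlap (log2 difference -5.08, SE 0.61, adjusted p = 1.55e-15), and this held in all alternatives. In α cells it was at 12.0, 11.6 and 0 CPM from 6, 7 and 0 UMIs (-1.91, SE 0.72, adjusted p = 0.0379). That call was lost without mutant 1 (adjusted p = 0.184), without mutant 2 (0.451), without the library block (0.099) and after thinning (0.76). In δ cells it was at 37.7, 0 and 31.0 CPM from 2, 0 and 6 UMIs (-3.37, SE 0.89, adjusted p = 0.00213), lost without control 2 (-2.36, adjusted p = 0.50) and after thinning (0.534). Leukocytes held 1, 1 and 4 UMIs (-4.36, SE 1.06, adjusted p = 0.000253), also lost without control 2 (adjusted p = 0.161) and after thinning (0.488). Stellate cells held 2 UMIs (-3.70, SE 1.72, adjusted p = 0.107), and DESeq2 (adjusted p = 0.0119) and the scaling by all UMIs (0.0257) called this difference. Of 5 other acyl-CoA thioesterases 1 was tested, and it was lower in β than in endothelial cells (log2 difference -3.21) and not called against the other classes.

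Mgst1 (ENSMUSG00000008540, chromosome 6, 138140316 to 138156755, plus strand) was at 22.6, 74.3 and 73.6 CPM in endothelial cells, from 2, 8 and 27 UMIs, and at 1.55, 0.9503 and 0.244 CPM in β cells, from 6, 4 and 4 UMIs. The 70.8-fold difference (log2 -6.14, SE 0.84, adjusted p = 1.98e-12) held in all alternatives. α cells held 1, 1 and 5 UMIs, and their difference (-2.90, SE 0.99, adjusted p = 0.0192) rested on control 2, without which it was -0.58 (adjusted p = 0.816). It was lost as well in DESeq2 (0.094), without the library block (0.112) and after thinning (0.883). No UMI was seen in δ or PP cells or leukocytes. Among 7 other glutathione genes, 5 were tested. Against α cells 1 was higher and 0 lower, with a median of 0.40, beside 0.15 for all genes. With all UMIs as library size it was -0.32, beside -0.55 for all genes, and 2 were lower and 1 higher. Against endothelial cells 2 were lower and 0 higher. Gstm1, a cytosolic glutathione transferase, was at 45.8 CPM in β cells, 10.5 in α cells (2.24, SE 0.43, adjusted p = 2.91e-06) and 167 in endothelial cells (-1.97, SE 0.30, adjusted p = 5.29e-10).

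Pdgfra (ENSMUSG00000029231, chromosome 5, 75152292 to 75198215, plus strand) was too rare to test. β cells held 2, 2 and 8 UMIs, or 0.518, 0.475 and 0.488 CPM, an even level over the libraries. α cells held 0, 4 and 1 UMIs, stellate cells of control 2 held 1, and δ, PP and endothelial cells and leukocytes held 0. Joined over libraries, α cells were 7.74-fold above β cells, with a counting interval of 0.042 to 0.468 for the ratio of β to α cells, but in the fit without a low-count filter the difference was -2.64 (SE 1.28, adjusted p = 0.28). Of 6 other PDGF receptors, ligands and the related receptor Kit, 4 were tested. Against α cells edgeR called 0, also at an unadjusted p under 0.05, while with all UMIs as library size 1 was lower. Their median difference from α cells was 0.30, and -0.37 under that scaling, beside 0.15 and -0.55 for all genes. Against endothelial cells 3 were lower and 1 higher in β cells, and against stellate cells 3 were lower and 0 higher.

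Cd44 (ENSMUSG00000005087, chromosome 2, 102811141 to 102901665, minus strand) was not low in β cells, unlike the other genes. Its β-cell level was 31.4, 35.4 and 115 CPM in mutant 1, mutant 2 and control 2, from 121, 149 and 1882 UMIs, whereas α cells were at 5.997, 3.31 and 9.34 CPM from 3, 2 and 2 UMIs. Every β-cell value was above every α-cell value, and β cells held 8.85-fold more (log2 β minus α 3.15, SE 0.49, adjusted p = 3.02e-09), in all alternatives. Endothelial cells held 1, 0 and 2 UMIs, and β cells were higher by 3.78 (SE 0.66, adjusted p = 6.60e-08). Without control 2 this difference was 2.42 (adjusted p = 0.105). Leukocytes were at the top with 264, 242 and 529 CPM, from 7, 9 and 35 UMIs, 5.95-fold above β cells (-2.57, SE 0.36, adjusted p = 3.19e-11), which held throughout. δ cells were at 18.9, 111 and 67.2 CPM from 1, 12 and 13 UMIs and overlapped the β cells, with a difference of -0.20 (SE 0.41, adjusted p = 0.821). With all UMIs as library size the δ-cell difference became -1.45 (adjusted p = 0.00424). Stellate cells of control 2 were at 104 CPM from 9 UMIs (-0.13, SE 0.63, adjusted p = 0.911) and PP cells held 0, 1 and 1 UMIs. In falling order, leukocytes came before β, δ and stellate cells, and α, PP and endothelial cells came last. The order of β and δ cells changed between libraries. In mutant 2 their counting intervals were apart, at 57.6 to 195 CPM in δ and 29.9 to 41.6 CPM in β cells. In mutant 1 and control 2 δ cells were below β cells, so the small fitted difference joins opposite directions. None of 7 other hyaluronan genes, among them the hyaluronan synthases, passed the filter.

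Other genes often listed as disallowed in β cells behaved like Ldha against non-endocrine cells, and unlike Cd44 against endothelial cells. Of 12 such genes 9 were tested, and 9 were lower in β than in endothelial cells, 8 lower than in stellate cells and 5 lower than in leukocytes, with none higher. Their median difference from endothelial cells was -5.39, beside 0.27 for all genes. Against α cells only Lmo4, a LIM-domain regulator, was lower (5.76 against 17.0 CPM, log2 difference -1.59, SE 0.59, adjusted p = 0.0333). The median there was 0.24 (-0.42 with all UMIs as library size), beside 0.15 (-0.55) for all genes. Against δ cells 1 was lower and 0 higher, with a median of 2.01, beside 0.34 for all genes. Ldha was called against neither α nor δ cells. These genes were picked as known from the literature and with earlier results of these libraries in view, so their direction is no independent evidence.

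Because depth differed between libraries and classes, each cell was also thinned to 1000 UMIs, with shallower cells left out, and the share of cells with a UMI was counted. Any of the 9 genes other than Cd44 was then seen in 1.01% of β cells of mutant 1 (exact binomial interval 0.61 to 1.57, 19 of 1885 cells), 1.23% in mutant 2 (0.72 to 1.96, 17 of 1382) and 0.602% in control 2 (0.31 to 1.05, 12 of 1993). In endothelial cells the shares were 48.1%, 45.2% and 47.2%, from 13 of 27, 14 of 31 and 17 of 36 cells. α cells lay between them, with 13 of 260 cells in mutant 1 (interval 2.69% to 8.40%), 6.02% (3.24 to 10.1) in mutant 2 and 2.86% (0.07 to 14.9) in control 2. In both mutant libraries the α and β intervals did not overlap, while in control 2, with 35 α cells, they did. The intervals cover counting error only.

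Cd44 at the same depth was seen in 1.86% (1.30 to 2.57), 2.03% (1.35 to 2.91) and 5.12% (4.19 to 6.18) of the β cells in the libraries mutant 1, mutant 2 and control 2, against 4.99%, 9.05% and 49.9% before thinning. In α cells the thinned shares were 0 of 260, 1 of 216 and 0 of 35 cells, of which the first allows a share of up to 1.15%. In leukocytes of mutant 2 and control 2 they were 35.7% and 38.5%, from 5 of 14 and 5 of 13 cells. α cells, in which at most 0.463% held a Cd44 UMI, served as the measure of background, and the β-cell shares lay above it in all 3 libraries, though the exact α and β intervals overlapped in each of them.

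**Figure D3:**
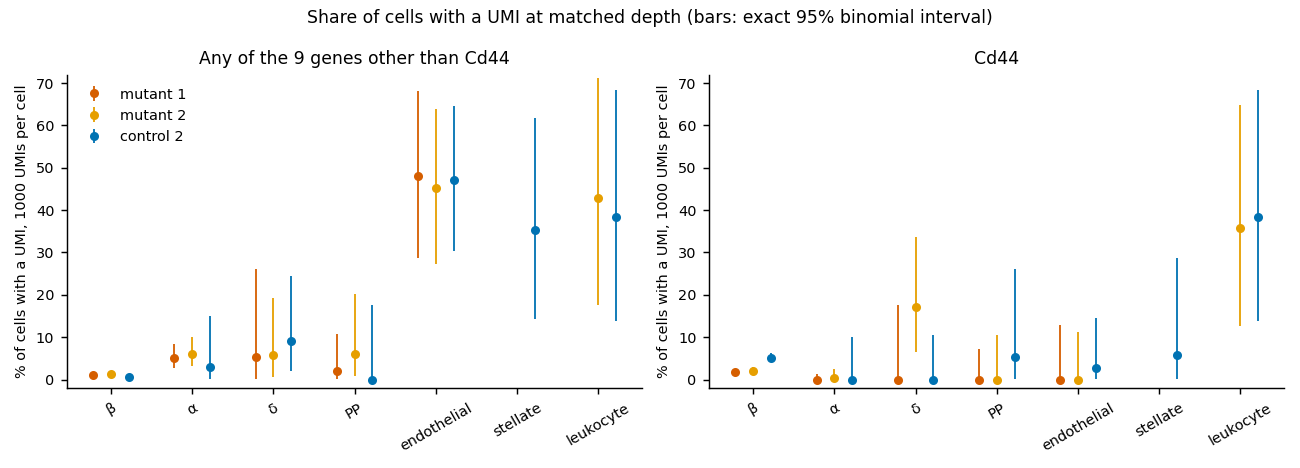
Share of cells with at least 1 UMI after each cell was thinned to 1000 UMIs, for any of the 9 genes other than Cd44 (left) and for Cd44 (right), by class and library. Bars are exact 95% binomial intervals, and classes with under 10 such cells in a library are left out. For the 9 genes β cells lay between 0.602% and 1.23% and endothelial cells between 45.2% and 48.1%.

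Free RNA from other cells gives UMIs in droplets that hold a β cell, so the β-cell counts were set beside the amount of other cells' markers found there. Endothelial marker UMIs were present in β cells at 0.407%, 0.449% and 0.201% of their level in endothelial cells, and leukocyte markers at 0.227%, 0.262% and 0.225% of theirs. α-cell hormone UMIs were present at 1.34%, 1.48% and 0.079%, where the rule itself kept β cells below 2% of each other hormone. A carried number was summed over α, δ, endothelial, stellate and leukocyte cells, with PP and duct cells left out. If each gene came with the markers in the ratio of its source class, β cells would carry 11.02, 21.6 and 44.7 Ldha UMIs, beside 33, 16 and 62 counted. The count in mutant 2 was thus not above the carried number. That in mutant 1 was 2.99 times the carried number, with 16 UMIs left without the cell that held 17. That in control 2 was 1.39 times the carried number, with 45 UMIs left without a cell that also held 17.

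Hk1 was counted at 13, 20 and 14 UMIs against 6.90, 8.19 and 7.99 carried, and Acot7 at 14, 10 and 23 against 8.77, 5.27 and 13.1, at most 2.44-fold above it. The Poisson intervals included the carried number for Acot7 in mutant 1 and mutant 2 and for Hk1 in control 2. Mgst1 was counted at 6, 4 and 4 UMIs against 1.03, 3.31 and 6.81, and Oat at 4, 11 and 46 against 4.67, 6.53 and 12.7. The intervals included the carried number for Mgst1 in mutant 2 and control 2 and for Oat in mutant 1 and mutant 2. Pdgfra had 2, 2 and 8 UMIs against 0, 0.887 and 0.307, which is 26.1-fold in control 2. That carried number rests on 1 α-cell and 1 stellate UMI, and 1 β cell held 3 of the 8 UMIs. The intervals take the carried number as exact, so this ratio is uncertain. Rest had 4, 6 and 7 against 0.867, 1.53 and 5.08, and Slc16a1 had 1, 2 and 2 against 0, 0.394 and 0.223. Hk2 in control 2 was below the carried number, with 3 against 22.1 UMIs. Cd44 was 12.8-fold, 10.4-fold and 33.1-fold above it, with 121, 149 and 1882 UMIs against 9.45, 14.4 and 56.8. The part of free RNA and of mixed droplets in the low counts was not tested beyond these values.

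**Figure D4:**
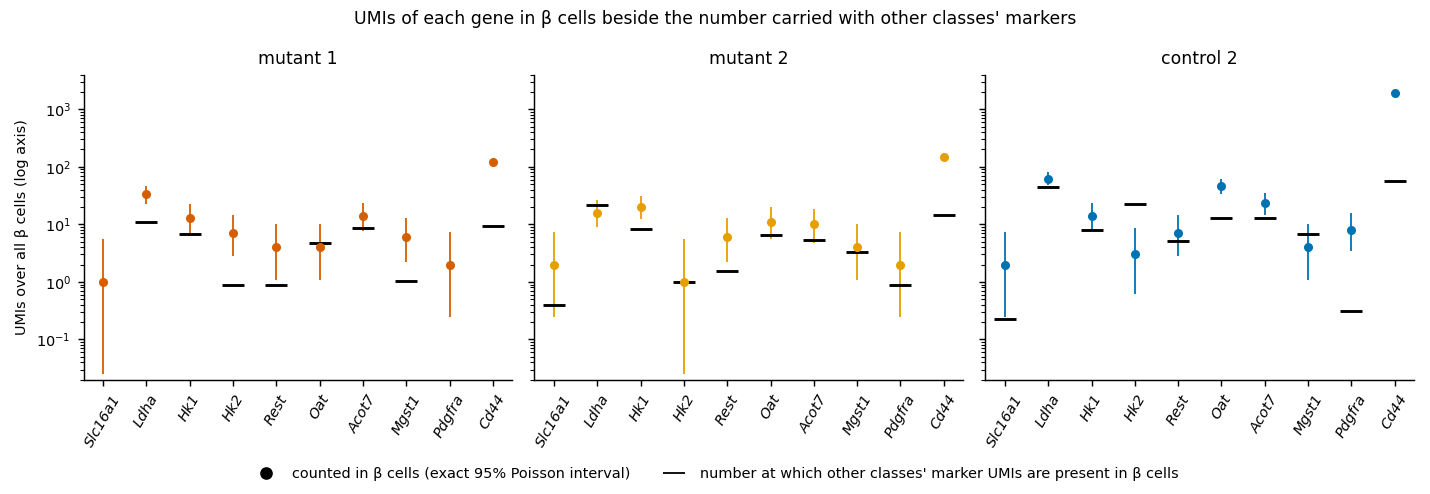
UMIs of each gene summed over all β cells (points with exact 95% Poisson intervals, log axis), by library. Horizontal marks give the number that would accompany the marker UMIs of α, δ, endothelial, stellate and leukocyte cells found in β cells. PP and duct cells were left out of that number. A mark is not drawn where that number is 0. Cd44 lies far above its mark in all 3 libraries, while Ldha in mutant 2 (16 against 21.6 UMIs) and Hk2 in control 2 (3 against 22.1 UMIs) lie below theirs.

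To describe the genotypes, the β-cell sums of mutant 1 and mutant 2 were each divided by those of control 2 on the log2 scale. For these ratios TMM scaling was computed anew over the β-cell sums alone. They therefore differ from the ratios of the levels given above, which were scaled over all classes together. With 1 control library no test of genotype was possible, and the gap between both mutant libraries is the only measure of spread. Of the 10 genes, 5 had a mean of at least 1 CPM. Among these Cd44 was lower by over 0.5 in both mutant libraries, as were 32.3% of 13625 genes at that level, and Hk1 was higher in both, as were 16.8% of them. The median gene was at -0.24 and -0.23 on this scale, and at 0.36 and 0.37 with all UMIs as library size. A share of 1 in 5 is not set apart from that background. With hormone and mitochondrial genes left out of the library size, which raises every CPM, 7 members reached 1 CPM, and Hk1, Acot7, Rest and Mgst1 were higher and Cd44 lower in both, beside 4271 genes higher and 3338 lower of 16043.

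Cd44 UMIs numbered 121 and 149 in the β cells of the mutant libraries and 1882 in those of control 2, with log2 ratios of -2.20 (counting interval -2.49 to -1.94) and -2.03 (-2.29 to -1.80). Depth moved with this difference. In β cells of 3000 to 6000 UMIs, with 65, 54 and 58 Cd44 UMIs, the ratios shrank to -1.22 and -1.27, and after thinning to 1000 UMIs they were -1.73 and -1.69. They stayed below -1 in both libraries under all alternatives run, at -1.62 and -1.44 with all UMIs as library size. The counting intervals do not cover this choice of scaling. The median insulin share of β cells was 39.9%, 42.1% and 55.1%. Hk1, with 13, 20 and 14 UMIs, had ratios of 1.52 (0.43 to 2.84) and 1.998 (1.08 to 3.23). After thinning, 2, 3 and 1 UMIs were left, and the ratios of 0.48 (-3.42 to 6.73) and 1.16 (-1.84 to 7.51) were too uncertain to read.

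Ldha had ratios of 0.82 (0.18 to 1.47) in mutant 1 and -0.32 (-1.23 to 0.48) in mutant 2, but their signs changed with the processing. With all UMIs as library size they were 1.39 and 0.26, and after thinning to 1000 UMIs 0.54 and 0.17. In β cells of 3000 to 6000 UMIs they were -0.54 and -0.15. A single cell held 17 of the 33 Ldha UMIs of mutant 1, and another 17 of the 62 of control 2. No direction was therefore read for Ldha. Acot7 was at 0.98 and 0.39 and Oat at -1.65 and -0.42, and for these genes the gap between the mutant libraries was 0.59 and 1.22. The other 5 genes had 5 to 17 UMIs over all β cells, and the intervals of Slc16a1, Rest and Pdgfra included 0 in both libraries, as did those of Hk2 and Mgst1 in mutant 2.

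**Figure D5:**
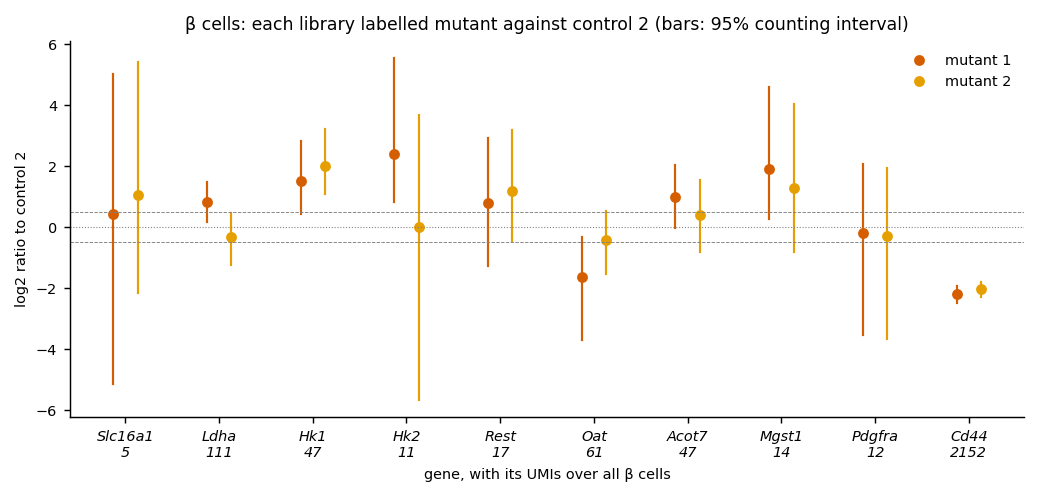
Log2 ratio of each mutant library to control 2 in β cells for the 10 genes, with 95% counting intervals, and the UMIs over all β cells under each name. TMM scaling was computed over the β-cell sums alone. The dashed lines mark 0.5 in either direction. Cd44 lies near -2 in both libraries with narrow intervals, and Hk1 lies above 0.5 in both.

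Over the 19 sums of a library and a class, the genes with the pattern most like each member were found by Pearson's r of log2 CPM. The sums share 3 libraries, and their depth differs by class, so r is given as a description. Ldha was most like Litaf (0.915), Lrrfip1 (0.912) and Msn (0.911). Mgst1 was like Alpl (0.959) and Zfp503 (0.952), and Hk2 was most like Ccl2 (0.9503), Adap1 (0.948) and Rab7b (0.948). For Cd44 these were Ypel3 (0.824), Ptger4 (0.820) and Plcg2 (0.820), for Hk1 Rhoc (0.834), Tnfaip1 (0.829) and Prkg1 (0.825), for Oat Ccnl1 (0.859), Poglut3 (0.847) and Epb41l2 (0.842) and for Acot7 Plekha2 (0.790), H2-D1 (0.788) and Elf4 (0.787).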

How the data were processed

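The methods of the study name DropEst for the UMI count matrices, in an inDrop-Seq workflow, while the labels give PIPseq, so the tool behind these files is not settled. The deposited counts are whole numbers per gene and barcode without normalization. The submitters' processing notes name GRCm39 and Seurat, and the aligner, the annotation and the strand setting of the counting are not given in the sources used here. The files of mutant 1, mutant 2 and control 2 hold 8448466, 9013499 and 36985253 UMIs in 3023, 2045 and 2308 barcodes. Barcodes with under 500 UMIs, under 100 genes or over 10% mitochondrial UMIs were removed, which left 2940, 2040 and 2283 cells.

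Cells were classed by hormone shares and markers. α, δ and PP cells had at least 5% of Gcg, Sst or Ppy, and non-endocrine cells at least 3 markers of their class making up at least 0.5% of UMIs. Cells that met no rule or several were set aside (354, 199 and 131), and no doublet caller was run. Sums of at least 10 cells were fitted with edgeR 4.0.16 (TMM, quasi-likelihood test, library block, residual df 10) in R 4.3.3, with calls at an adjusted p of 0.05. All classes shared 1 estimate of the spread, so stellate cells, with 1 sum, were assumed to vary like the others. With library as a block, the p-values set differences between classes against a spread over 3 libraries of pooled islets. That spread is joined over all classes and, in edgeR, over genes. It includes any class difference that varies with genotype or batch. How a single member varied over the libraries thus hardly entered its p-value. Hk2 in leukocytes, with 0, 1 and 15 UMIs, still had an edgeR adjusted p of 8.10e-09. Both mutant libraries differed beyond sampling noise (chi-square per degree of freedom 5.69 over 14310 genes). The SE printed with a log2 difference is its absolute value divided by the square root of edgeR's F statistic, because edgeR itself gives no SE. A prior count of 1 entered the ratios between libraries. All intervals given are exact ones at 95% for counting error alone, and the limit for a count of 0 is 3 UMIs. Steps were tested on simulated data, with changes placed in abundant genes alone, so recovery at the low levels of these members was not tested. Python 3.11.15 was used.

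The members, gene lists, markers and tests were chosen with earlier results of these data known. The genes named are the 10 members, up to 4 genes of each list with the largest β to α difference among those called, and the 3 genes most like each member, of which some are not reported here. Other normalizations, DESeq2 1.42.0, no low-count filter, no library block, thinning, other limits for β cells and leaving out each library were tried. Gene positions come from GENCODE vM21 of GRCm38 and identify the genes only.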

Additional observations from a re-analysis of the deposited data

Results flagged for a closer look

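Cells that met no class rule, or more than 1, took no part in the comparisons but held UMIs of 4 of the genes above 3 in every library. Ldha had 39, 16 and 128 UMIs in the 354, 199 and 131 cells set aside in mutant 1, mutant 2 and control 2. In control 2 these 128 UMIs lay in 6 cells, with 63 in 1 of them, and in mutant 2 they lay in 2 cells, with 15 in 1 of them. Cd44 had 27, 30 and 56 UMIs, Acot7 18, 11 and 6, and Oat 10, 4 and 8. Among the few cells with duct markers, Mgst1 had 7 UMIs in 2 cells of mutant 1 and 16 UMIs in 6 cells of control 2, and every one of these cells held it. No cell of mutant 2 met the duct rule. The part of mixed droplets was not tested.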

How the results depend on the processing

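No paired analysis was possible because the groups share only replicate number 2 among the libraries used here. Of the 21 calls of a member against a class, 10 held in all alternatives and 10 lost significance in some. For 2 the fitted sign changed after thinning to 1000 UMIs (Hk2, also counted among those lost, and Oat, both against stellate cells, at 0.66 and 2.79). Neither was called there, and these signs are not read. No Hk2 UMI was left in β cells, and Oat kept 0, 2 and 5. The genes called moved by over 1.5 times in these settings. With all UMIs as library size 2798 genes instead of 1782 were called against α cells (2500 lower and 298 higher instead of 720 and 1062) and 2788 instead of 1136 against δ cells (2677 lower and 111 higher instead of 359 and 777), and the splits were 3723 and 715 against endothelial, 1969 and 172 against stellate and 1895 and 380 against leukocyte cells. The median of all genes then moved from 0.15 to -0.55, 0.34 to -0.90, 0.27 to -0.98, 0.49 to -0.90 and 0.88 to -0.52. With hormone and mitochondrial genes left out of the library size the δ-cell split was 631 and 384, and in the ratios of mutant libraries to control 2 the split was 3338 and 4271 instead of 4400 and 2289, and 1740 and 5267 with all UMIs. Without the library block 638 were called against α and 512 against δ cells. After thinning 1078, 506, 2222, 539 and 1199 were called against α, δ, endothelial, stellate and leukocyte cells, where fewer UMIs are left. Leaving out each library gave 743 to 2542, 522 to 746, 2728 to 3177, 1482 to 1589 and 1573 to 2226, without a stellate value when control 2 was left out.

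The members called lower against α cells were 2 without the library block and 1 after thinning, against δ cells 4 with all UMIs as library size and 0 after thinning, and against stellate cells 1 after thinning. Leaving out each library gave 3 against α cells, 0 to 1 lower against δ cells, 0 to 1 higher against endothelial cells and 3 to 5 lower against leukocytes. Of the 5 members at 1 CPM or more, those past 0.5 in both mutant libraries were 4 instead of 2 with other hormones under 0.5%. Of these, 2 were lower and 2 higher, beside 4107 genes lower and 2168 higher of 13452. With each mutant library left out, 2 to 5 were past 0.5 in the one that remained. The share of all genes was not counted there, so these counts have no background and are not read as a result. With the members at 1 CPM or more chosen anew, an alternative set after seeing the data, 5 of 7 passed when hormone and mitochondrial genes were left out of the library size. Beside them, 4271 genes were higher and 3338 lower of 16043. The Cd44 share of β cells was 0.932%, 1.27% and 2.61% at 500 UMIs and 3.32%, 2.97% and 10.1% at 2000 UMIs. A hormone limit of 2% for the other endocrine cells, chosen after seeing the data, changed no call of a member. Except where a value is named, the cause was not tested. With 94 δ cells, 43 leukocytes and 17 stellate cells in the fits, a difference of a rare gene could pass unseen.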
